A study of Mus musculus with 37 samples.

Results

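The 4 galectin genes Lgals3, Lgals4, Lgals2 and Lgals9 were followed through mouse jejunal organoids treated with the vasoactive intestinal peptide (VIP), a neuropeptide of the enteric nervous system. They were chosen by gene symbol, with earlier results of these data in view, and are 4 of the 31533 genes that the 3 count tables of the series hold between them. In the first experiment, whole organoids grown from C57Bl6/J mice were left untreated (control, 3 cultures) or received 100 nM VIP for 72 h (4 cultures). In the second, organoids carrying the Lgr5-EGFP-IRES-CreERT2 allele, in which EGFP is driven from the Lgr5 locus of stem and progenitor cells, had the same treatment before the EGFP-positive cells were sorted (4 control and 4 VIP samples). In the third, organoids with that same allele first received 6 Gy of irradiation or none. Per the paper, 48 h with or without 100 nM VIP came after irradiation and before the sort, giving 4 groups of 4 samples. All lines came from male and female mice of 6 to 12 weeks, each number below stands for 1 mouse and its line, and the 12 mice of the series each belong to 1 experiment only. Every culture therefore had a partner of the same mouse in each other group of its experiment, except that mouse 4 of the whole organoids had no control culture. Control and treated samples of the sorted cells all carried the Lgr5-EGFP-IRES-CreERT2 allele, and the C57Bl6/J whole organoids did not.

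Galectins are lectins that bind β-galactoside sugars on glycoproteins and glycolipids and leave the cell without a signal peptide. Galectin-3, encoded by Lgals3, joins a single carbohydrate recognition domain to a flexible N-terminal tail, with which it can form lattices on the cell surface. Galectin-4 and galectin-9 carry a pair of such domains on 1 chain, and galectin-2 is a small protein of a single domain that can dimerise. In the intestinal epithelium galectin-4 is tied to lipid rafts and apical transport, galectin-3 is found mainly in cells that have left the crypt base, and galectin-9 is best known as a ligand of immune receptors.

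The domain structure can be read from the coding sequence. The carbohydrate recognition domain holds a conserved tryptophan and glycine, any residue, and then an acidic residue that contacts the sugar, so each transcript was searched in frame for the tryptophan codon TGG, a glycine codon starting GG, any codon, and a codon starting GA. Lgals3 (792 coding bases) and Lgals2 (390.0 coding bases) held this pattern at 1 place each, and Lgals4 (978 coding bases) and Lgals9 (1059 coding bases) at 2 places each, 1 per domain. The matches are shown with 18 coding bases on either side, each within 1 exon, from GENCODE M21 transcripts on GRCm38. Capitals mark the pattern, and the strand is that of the gene.
Lgals3, chr14:47384693-47384740, plus strand: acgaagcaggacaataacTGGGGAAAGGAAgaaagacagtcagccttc
Lgals4, first, chr7:28835924-28835971, plus strand: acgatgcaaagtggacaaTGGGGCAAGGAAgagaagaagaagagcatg
Lgals4, second, chr7:28841230-28841277, plus strand: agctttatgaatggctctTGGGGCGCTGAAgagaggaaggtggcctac
Lgals2, chr15:78851291-78851338, minus strand: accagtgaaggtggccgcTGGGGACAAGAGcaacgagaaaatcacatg
Lgals9, first, chr11:78973048-78973095, minus strand: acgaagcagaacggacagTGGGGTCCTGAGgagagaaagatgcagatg
Lgals9, second, chr11:78965725-78965772, minus strand: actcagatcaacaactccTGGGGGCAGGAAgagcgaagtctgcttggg

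In GENCODE M21 on GRCm38 the genes lie on 4 chromosomes: Lgals3 at chr14:47367751-47386160 and Lgals4 at chr7:28833854-28841708 on the plus strand, Lgals2 at chr15:78850860-78855529 and Lgals9 at chr11:78962974-78984946 on the minus strand. Lgals2 overlaps Cdc42ep1 on the opposite strand, and whether the counting used strand is not given in the sources used here, so reads of the overlap cannot be told apart. Lgals6, a close relative of Lgals4, had no row in any table.

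Reads were taken from the 3′ ends of poly(A) RNA and collapsed by unique molecular identifiers (UMIs), so that each counted molecule gives 1 UMI whatever the length of its transcript; levels are given as CPM, a gene's UMIs divided by the total of the culture and scaled to 1000000, and may be set side by side between genes on that scale. Whole organoid cultures held 3722716 to 6330404 UMIs, sorted samples of the second experiment 575242 to 1104126, and those of the irradiation experiment 1075715 to 1876729. Sorted cells had summed enterocyte markers (8 genes) of 1176 to 3613 CPM against 13295 to 18229 CPM in whole organoids. Their Olfm4, a stem cell marker, ran from 1653 to 5846 CPM against 1156 to 3495 CPM in whole organoids, but Lgr5 itself was not higher in them: 12.2 to 56.2 CPM against 42.4 to 116 CPM. Axin2 and Slc12a2 were not higher either (57.8 to 118 against 55.1 to 120 CPM, and 123 to 354 against 214 to 491 CPM). Ascl2 and Smoc2 reached higher values in sorted cells than in whole organoids. Sorted samples also held RNA of other cell types: summed Paneth markers were 3879 to 27162 CPM against 11802 to 20623 CPM in whole organoids. Summed enteroendocrine markers were 372 to 6936 CPM against 600 to 762 CPM. Immune, fibroblast and endothelial markers were at or near 0 throughout (at most 7.99, 2.56 and 2.98 CPM in sum); Adgre1 had no row in the tables used here, and Cd3e gave at most 1 UMI in any culture. In bulk RNA, a change in the number of cells of a type and a change in the RNA of each cell cannot be told apart.

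One library stood apart from its technical partner. Whole organoid cultures were sequenced as 1 or 2 technical replicate libraries, which were summed. In the second library labelled VIP-treated mouse 3, log2 CPM differed from its own first library with an SD of 0.73 over 11359 genes, against 0.30 to 0.37 for the other technical pairs, and from the libraries of untreated mouse 1 with SDs of 0.35 and 0.36. From the VIP libraries of other mice the first library differed with SDs of 0.56 to 0.74, the second with 0.40 to 0.51. The control library of mouse 3 differed from libraries of other mice with SDs of 0.54 to 0.77. From the first and second VIP libraries of mouse 3 it differed with 0.48 and 0.61. Why these libraries differed was not tested. It held 144.7 CPM of Lgals3, where its first library held 1056 CPM, the other VIP libraries 454 to 1056 CPM and the 5 control libraries 98.3 to 163 CPM. Clca1, a goblet cell product, was likewise at 52.3 CPM in it, within the range of the control libraries (40.2 to 60.9 CPM), and at 325 CPM in its partner. The VIP effects on the members in whole organoids are therefore given with and without it. So are the counts of called genes and the difference of the Lgals3 effect from sorted cells. All other values that use whole organoids, among them markers, other listed genes and correlations, include it.

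**Figure D1:**
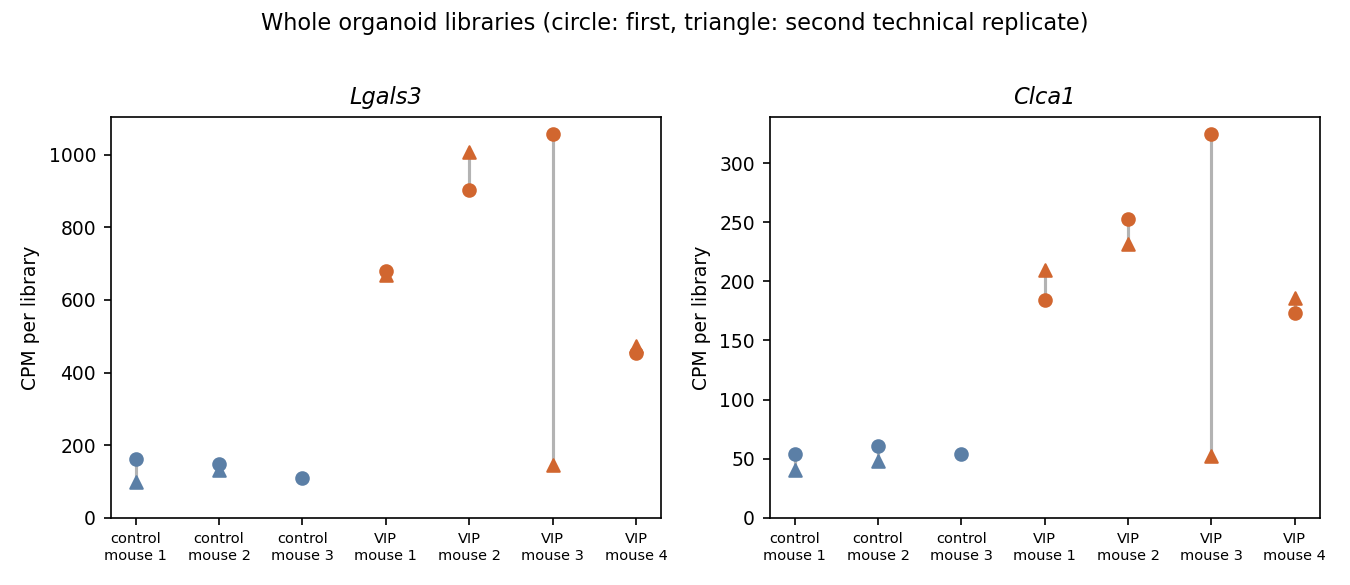
CPM of Lgals3 (left) and Clca1 (right) in each whole organoid library; circles are first and triangles second technical replicate libraries, joined by a line within a culture, blue for control and orange for VIP. The triangle of VIP mouse 3 lies among the control libraries for both genes, while its circle is the highest point of each panel.

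Lgals2 and Lgals4 were the abundant galectins in every group, and Lgals9 and Lgals3 were lower. Lgals4 lay between 3478 and 5832 CPM over all 31 cultures, with group means from 4119 ± 319 (VIP-treated sorted cells; SD, n = 4) to 5566 ± 189 CPM (non-irradiated controls of the irradiation experiment; n = 4). Lgals2 lay between 4064 and 7661 CPM, with group means from 4301 ± 215 in VIP-treated organoids (n = 4) to 6568 ± 885 CPM in untreated sorted cells of the second experiment (n = 4). Lgals9 ran from 312 to 572 CPM, with group means of 367 ± 70.0 to 533 ± 37.7 CPM. For these 3 genes the range of every group overlapped that of the next lower group in the order of means, so the order is not resolved between neighbours.

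Lgals3 spanned 11.8 to 961 CPM. Its group means ran from 701 ± 204 CPM in VIP-treated organoids (SD, n = 4) through 127 ± 14.97 in control organoids (n = 3), 105 ± 28.6 in cells both treated with VIP and irradiated, and 67.3 ± 14.5 in irradiated untreated cells, to 47.5 ± 16.6, 47.5 ± 10.3, 44.2 ± 18.8 and 36.3 ± 25.7 CPM in the non-irradiated sorted groups (n = 4 each). Only VIP-treated organoids stood clear of the next group; all other neighbours in this order overlapped. In sorted cells without irradiation the values rest on few molecules, 7 to 43 UMIs per sample in the second experiment. For the sample with 7 UMIs, control mouse 1, the exact 95% binomial interval was 4.75 to 24.3 CPM, which covers counting error only.

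**Figure D2:**
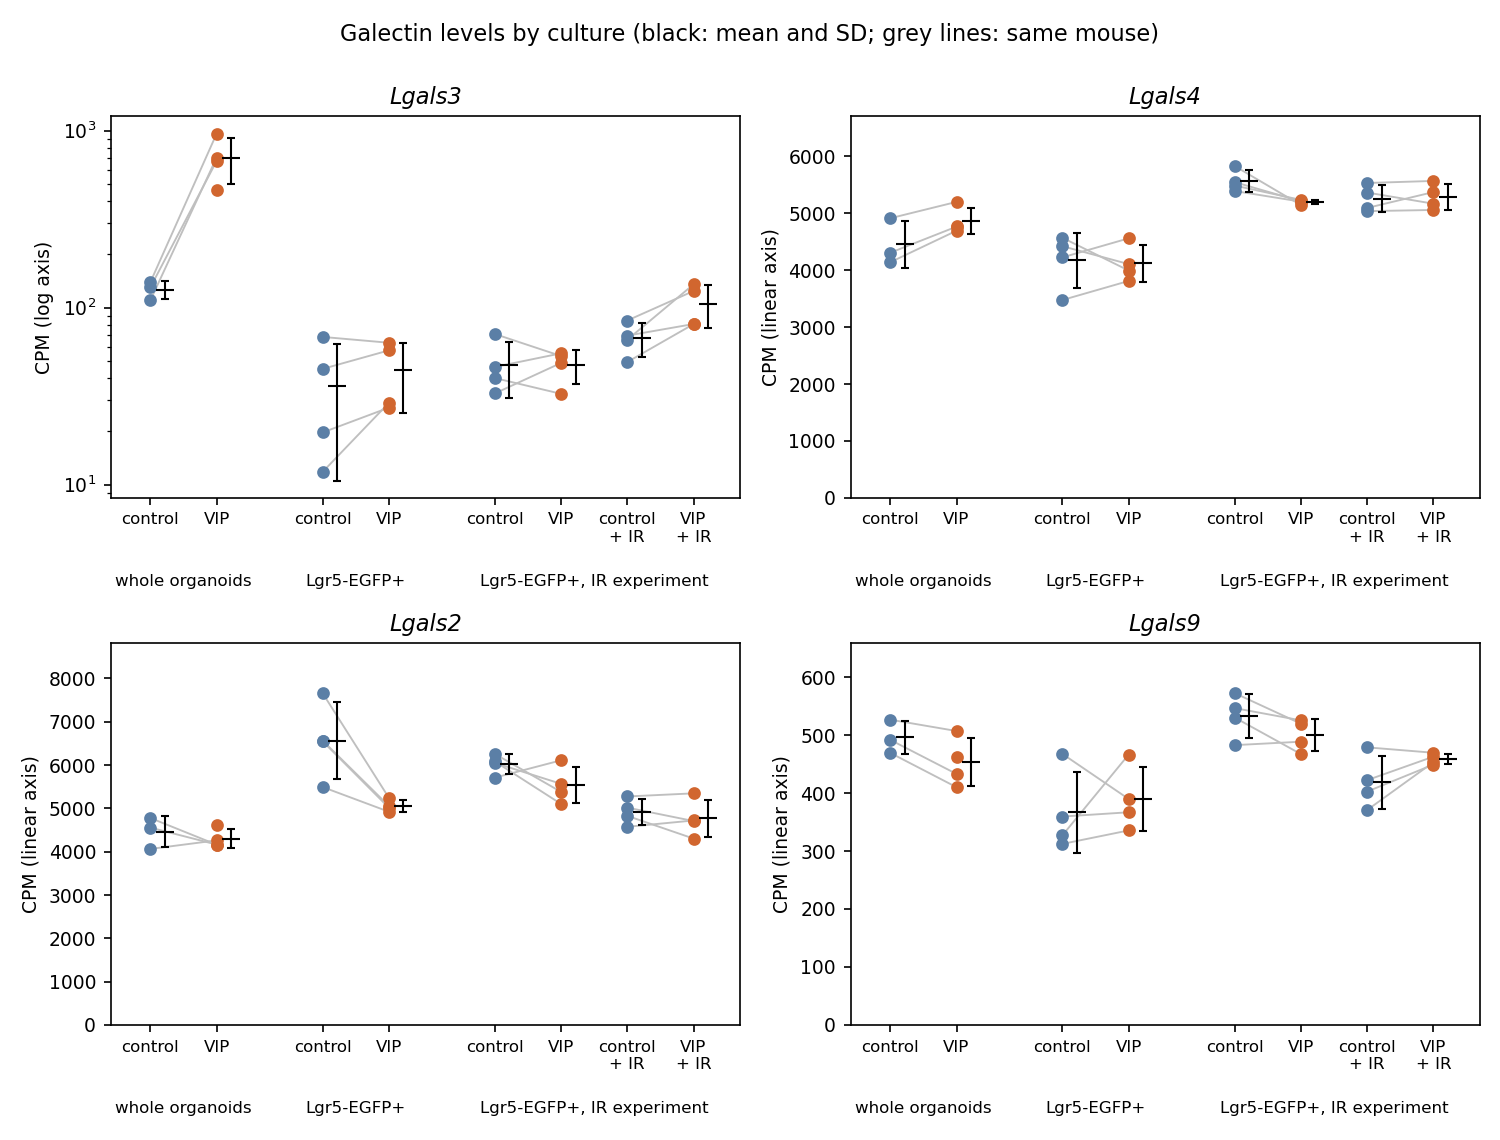
CPM of the 4 galectins in each culture (points), with the group mean and SD (black) and grey lines joining control and VIP cultures of a mouse; the Lgals3 axis is logarithmic and the others are linear from 0. VIP-treated organoids reached 463 to 961 CPM of Lgals3 where control organoids had 110.1 to 139 CPM, while Lgals4, Lgals2 and Lgals9 kept to narrow bands.

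The first question was what VIP does to these genes in whole organoids, where all epithelial cell types are present. Lgals3 stood at 130.3, 139 and 110.1 CPM in the control cultures of mice 1, 2 and 3, and at 674, 961, 704 and 463 CPM in the VIP cultures of mice 1 to 4. The groups did not overlap, and within mice 1, 2 and 3 the level was 5.17-fold, 6.90-fold and 6.39-fold higher with VIP. In the edgeR quasi-likelihood fit with the mouse as a block the log2 fold change was 2.60 ± 0.10 (SE) over 12727 genes tested, a 6.08-fold higher level; mouse 4, without a control culture, adds nothing to this estimate. The choice of the genes rests in part on this contrast, so its values are a description and no p is given; in either direction, 4.82% of all genes tested were called at an adjusted p of at most 0.05. Without the library that stood apart the log2 fold change was 2.80 ± 0.13; with that library as the only one of its culture it was 1.88 ± 0.45 and no longer called, and no gene at all was called then.

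The other members did not pass in whole organoids. Lgals4 was higher in 3 of 3 mice, at 4142, 4308 and 4914 CPM in controls against 4695, 4767 and 5202 CPM with VIP and 4783 CPM in mouse 4, but the log2 fold change was only 0.13 ± 0.08. Lgals9 was lower in 3 of 3 mice, at 492, 469 and 526 CPM against 433, 410.0 and 507 CPM (463 CPM in mouse 4), with a log2 fold change of -0.15 ± 0.08. Lgals2 was lower in 2 of 3 mice (log2 fold change -0.09 ± 0.08). The 95% intervals, -0.05 to 0.31 for Lgals4, -0.33 to 0.03 for Lgals9 and -0.27 to 0.08 for Lgals2, leave no room for a change of the size seen in Lgals3. Without the library that stood apart, Lgals4, Lgals2 and Lgals9 changed by 0.18 ± 0.06, -0.12 ± 0.07 and -0.14 ± 0.07. None of them was called then either.

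Lgals3 did not rise alone in VIP-treated organoids. Of the 6 markers listed for the fetal-like, regenerating epithelium, 6 of 6 rose (adjusted p from 2.12e-08 to 0.0355, edgeR), among them the calcium-binding protein gene S100a6 by 2.62 ± 0.11 and Anxa1, an annexin, by 2.54 ± 0.14 on the log2 scale. Of 7 goblet cell markers 6 rose, led by Clca1 (2.08 ± 0.10, adjusted p = 5.63e-08) and the lectin gene Zg16 (1.67 ± 0.10, adjusted p = 3.8e-07). Summed, the fetal-like markers ran from 176 to 274 CPM in controls and 846 to 1522 CPM with VIP, and the goblet markers from 2256 to 2509 and 3806 to 4127 CPM; no marker of either list was at 0 in whole organoids. Of 8 enterocyte markers 1 rose and 2 fell (median -0.26), and 0 of the 6 Paneth, 6 stem, 4 tuft and 4 enteroendocrine markers were called (medians 0.11, -0.09, -0.45 and 0.00). The part of any of these cell types or states in the Lgals3 level was not tested.

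The second question was whether stem and progenitor cells share this response. The choice of the genes rests in part on VIP in sorted cells and its difference from whole organoids. The member values there are therefore a description. In sorted Lgr5-EGFP+ cells after the same 72 h, Lgals3 was at 11.8, 45.1, 19.7 and 68.4 CPM in the controls of mice 1 to 4 and at 29.0, 57.4, 27.2 and 63.4 CPM with VIP. It was higher in 3 of 4 mice, and the groups overlapped. The log2 fold change was 0.33 ± 0.26 with a 95% interval of -0.19 to 0.86, and it was not called, as was the case for all 4 members; 0.0885% of the 6778 genes tested were. The interval in whole organoids was 2.38 to 2.82. The sorted samples were shallower, with 7 to 43 UMIs of Lgals3 each, and the part of depth in this difference was not tested. Among markers, the 1 fetal-like marker tested in these samples was called higher with VIP (log2 fold change 1.68). Of 5 goblet markers tested, 1 was called lower.

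In 1 fit of both experiments the VIP effect on Lgals3 was lower in sorted cells than in whole organoids by 2.29 ± 0.27 on the log2 scale (95% interval -2.84 to -1.73). Of the 10186 genes tested, 0.147% were called. Without the library that stood apart the difference was -2.50 ± 0.30. It was -1.56 ± 0.54 and not called with that library as the only one of its culture, and -2.28 ± 0.49 and not called without the mouse as a block. For Lgals4, Lgals2 and Lgals9 the same difference was -0.18 ± 0.19, -0.31 ± 0.19 and 0.21 ± 0.17, none of them called. Sorted cells and whole organoids were separate experiments on different mice and strains, so compartment and experiment cannot be told apart.

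For Lgals2, sorted controls held 7661, 5493, 6552 and 6566 CPM and sorted VIP samples 5247, 4923, 5016 and 5057 CPM in mice 1 to 4. Every VIP sample lay below every control, and the level was lower in 4 of 4 mice. The share of all genes whose groups separate in this way was not counted, here or in the other comparisons. Statements that groups did not overlap are therefore a description. The log2 fold change of Lgals2 was -0.40 ± 0.15, which was not called over all genes. Lgals4 (-0.05 ± 0.14) and Lgals9 (0.06 ± 0.14) had changes smaller than their errors.

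**Figure D3:**
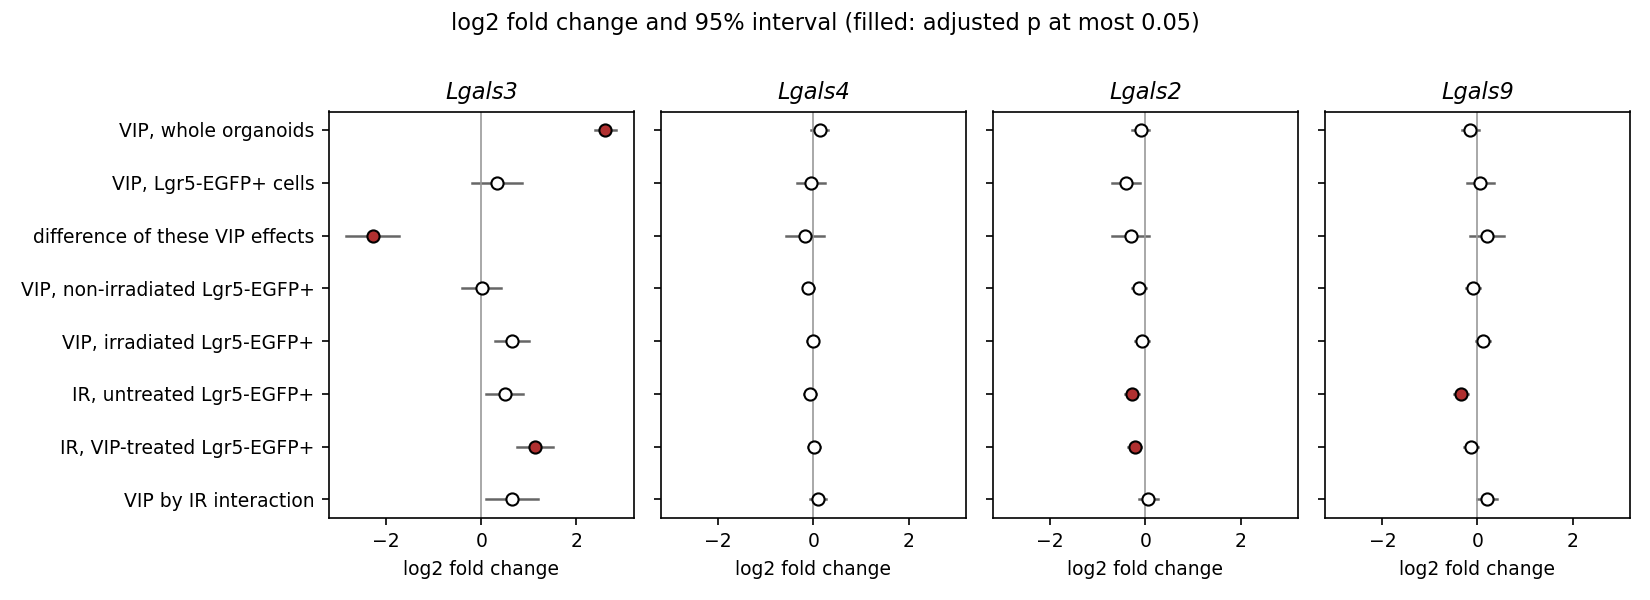
log2 fold change (points) and 95% interval (lines) of each galectin in the 8 comparisons, from the edgeR fits; IR is irradiation, and filled points had an adjusted p of at most 0.05. Lgals3 has the points farthest from 0: VIP in whole organoids (a 6.08-fold higher level), the difference of the VIP effects (-2.29) and irradiation with VIP (2.19-fold), and Lgals2 and Lgals9 lie slightly below 0 for irradiation. For VIP in whole organoids and in sorted cells, their difference and irradiation in untreated cells, the fill is a description only.

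The irradiation experiment gave a separate measurement of VIP in sorted cells, after 48 h. Without irradiation Lgals3 was at 71.0, 46.3, 40.0 and 32.8 CPM in controls and 53.3, 55.2, 32.6 and 48.7 CPM with VIP. It was higher in 2 of 4 mice and the log2 fold change was 0.01 ± 0.20 (edgeR, adjusted p = 0.994), with a 95% interval of -0.40 to 0.42. None of the 4 members was called (smallest adjusted p = 0.447, Lgals2), where 0.742% of 9976 genes were. Lgals4 was lower with VIP in 4 of 4 mice, at 0.883-fold to 0.965-fold the control level, with a log2 fold change of -0.10 ± 0.06 (adjusted p = 0.505). Among markers, 2 of 8 enterocyte markers were called lower with VIP and 1 of 6 stem markers higher.

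After 6 Gy, Lgals3 was higher with VIP than without in 4 of 4 mice. The irradiated controls held 65.9, 49.3, 84.6 and 69.5 CPM, and the irradiated VIP samples 135, 80.7, 124 and 80.8 CPM, which is 2.05-fold, 1.64-fold, 1.47-fold and 1.16-fold as much in mice 1 to 4. The ranges of the groups overlapped. The log2 fold change of 0.65 ± 0.17 did not pass over all genes (edgeR, adjusted p = 0.162, where 0.221% of genes were called). Of 10 alternative settings, 8 also left it uncalled. It passed in edgeR when the 8 irradiated samples were fitted alone (0.64 ± 0.12, adjusted p = 0.0264) and when genes of low count were kept (0.65, adjusted p = 0.000126). Both of these settings also called more genes in all. The other 3 members had log2 fold changes between -0.07 and 0.11 (adjusted p of at least 0.961). Among markers, 2 of 8 enterocyte and 1 of 7 goblet markers were called lower with VIP. Of 6 stem markers 1, and of 4 fetal-like markers tested 1, were called higher.

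The third question was what irradiation does with and without VIP. The choice of the genes rests in part on irradiation in untreated cells, so the member values there are a description. In untreated cells Lgals3 went from 71.0, 46.3, 40.0 and 32.8 CPM to 65.9, 49.3, 84.6 and 69.5 CPM, 0.928-fold, 1.07-fold, 2.11-fold and 2.12-fold. Mice 3 and 4 account for the difference, and the log2 fold change of 0.49 ± 0.19 was not called. Without mouse 1 it was 0.75 and called, but 8 of 10 alternative settings left it uncalled. In VIP-treated cells it went from 53.3, 55.2, 32.6 and 48.7 CPM to 135, 80.7, 124 and 80.8 CPM. Every irradiated sample lay above every non-irradiated 1, at 2.54-fold, 1.46-fold, 3.81-fold and 1.66-fold. The log2 fold change was 1.13 ± 0.18, a rise of 2.19-fold (edgeR, adjusted p = 0.000165), in a comparison in which 7.78% of genes were called; leaving out each mouse in turn gave 0.89 to 1.31, called each time. The irradiated and non-irradiated VIP samples used here are the same ones that enter the VIP comparisons above.

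The difference between these 2 irradiation effects on Lgals3, which is the VIP by irradiation interaction, was 0.64 ± 0.26 on the log2 scale (95% interval 0.10 to 1.18) and did not pass (edgeR, adjusted p = 0.687). No gene passed in this comparison (0% of 9976), although 634 had an unadjusted p below 0.05; DESeq2 also called none. A passed test with VIP and a missed one without it thus do not show that the irradiation effect on Lgals3 depended on VIP.

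Lgals2 and Lgals9 moved the other way. Their values in untreated cells, calls among them, are again a description, as the choice of the genes rests in part on that contrast. In untreated cells Lgals2 stood at 5710.1, 6258, 6051 and 6085 CPM without and 5275, 4575, 5018 and 4828 CPM with irradiation. All irradiated samples lay below all others, and the log2 fold change of -0.29 ± 0.07 was called, where 4.46% of genes were called in either direction. Lgals9 went from 530.1, 546, 483 and 572 CPM to 479, 422, 403 and 371 CPM, likewise without overlap and also called, with a log2 fold change of -0.34 ± 0.07. Both calls depended on which mouse was left out: without mouse 2, 3 or 4 that of Lgals2 was lost (-0.22 to -0.29), and without mouse 2 or 4 that of Lgals9 (-0.31 and -0.26).

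With VIP the fall of Lgals2 was of like size. It went from 6110.4, 5381, 5568 and 5103 CPM to 5348, 4721, 4708 and 4304 CPM, lower in 4 of 4 mice though the groups overlapped, and the log2 fold change was -0.23 ± 0.07 (edgeR, adjusted p = 0.0432). It was not called without the mouse as a block (adjusted p = 0.0753) or without mouse 2, 3 or 4 (adjusted p = 0.0976 to 0.167). Lgals9 changed by -0.13 ± 0.07 (adjusted p = 0.277), and Lgals4 by -0.07 ± 0.06 in untreated and 0.02 ± 0.06 in VIP-treated cells, neither called. For Lgals2 and Lgals9 the interaction was 0.06 ± 0.10 and 0.20 ± 0.10 (adjusted p = 0.963 and 0.783).

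Irradiation moved markers of several cell types in the same samples. All 6 Paneth cell markers rose in untreated and in VIP-treated cells (log2 medians 0.98 and 0.78), the 4 fetal-like markers tested rose in both (medians 1.01 and 1.25). Of 4 enteroendocrine markers 2 rose in untreated and 4 in VIP-treated cells (medians 0.94 and 1.21), of 7 goblet markers 4 and 2 (medians 1.08 and 0.56), and of 8 enterocyte markers 3 and 1 (medians 0.97 and 0.56), while 0 of the 3 tuft markers tested was called in either (medians 0.74 and 0.80). The medians over all genes were 0.00 in both. Of 6 stem markers 2 fell and 0 rose in each comparison (medians -0.13 and -0.28): Olfm4 by 0.64 ± 0.07 and by 0.86 ± 0.07 (adjusted p = 1.96e-06 and 8.02e-09, edgeR), and Smoc2 by 0.31 ± 0.08 and by 0.31 ± 0.07 (adjusted p = 0.0149 and 0.0078, edgeR). Lgr5 (0.04 ± 0.21 and -0.32 ± 0.19), Ascl2, Axin2 and Slc12a2 were not called. The summed stem markers, of which Olfm4 is the greater part, were 3341 to 4341 CPM in untreated and 5154 to 5629 CPM in VIP-treated cells, and 2411 to 2756 and 3022 to 3638 CPM after irradiation. Whether the galectin levels moved with these cell types was not tested.

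The remaining galectins were scarce. Of the 7 listed, Lgals1, Lgals8, Lgals12 and Lgalsl had enough counts to be tested in whole organoids and in the irradiation experiment. For VIP in sorted cells of the second experiment only 1 was tested. Lgals7 gave at most 11 UMIs in a whole group, Grifin 1 UMI in all, and Lgals6 was without a row. Lgals1, encoding the prototype galectin-1 that is abundant in mesenchyme, rose with VIP in whole organoids from 9.40 to 16.7 CPM in controls to 15.95 to 27.4 CPM (log2 fold change 0.68 ± 0.15, adjusted p = 0.0183, higher in 3 of 3 mice) and with irradiation in untreated cells from 21.0 to 25.02 CPM to 24.95 to 53.9 CPM, ranges that just overlapped (0.64 ± 0.18, adjusted p = 0.0369). Lgals12 fell with irradiation in VIP-treated cells, from 18.5 to 24.4 CPM to 8.62 to 13.5 CPM (-0.97 ± 0.21, adjusted p = 0.00441). In all, 1 of 4 tested rose in each of the first 2 comparisons and 1 of 4 fell in the last. Of all genes tested, 4.82%, 4.46% and 7.78% were called there in either direction. No other comparison had a call among the genes it tested. The medians of the 4 log2 fold changes were 0.39, -0.10 and 0.13 in the 3 comparisons with calls, where the medians over all genes were 0.00.

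**Figure D4:**
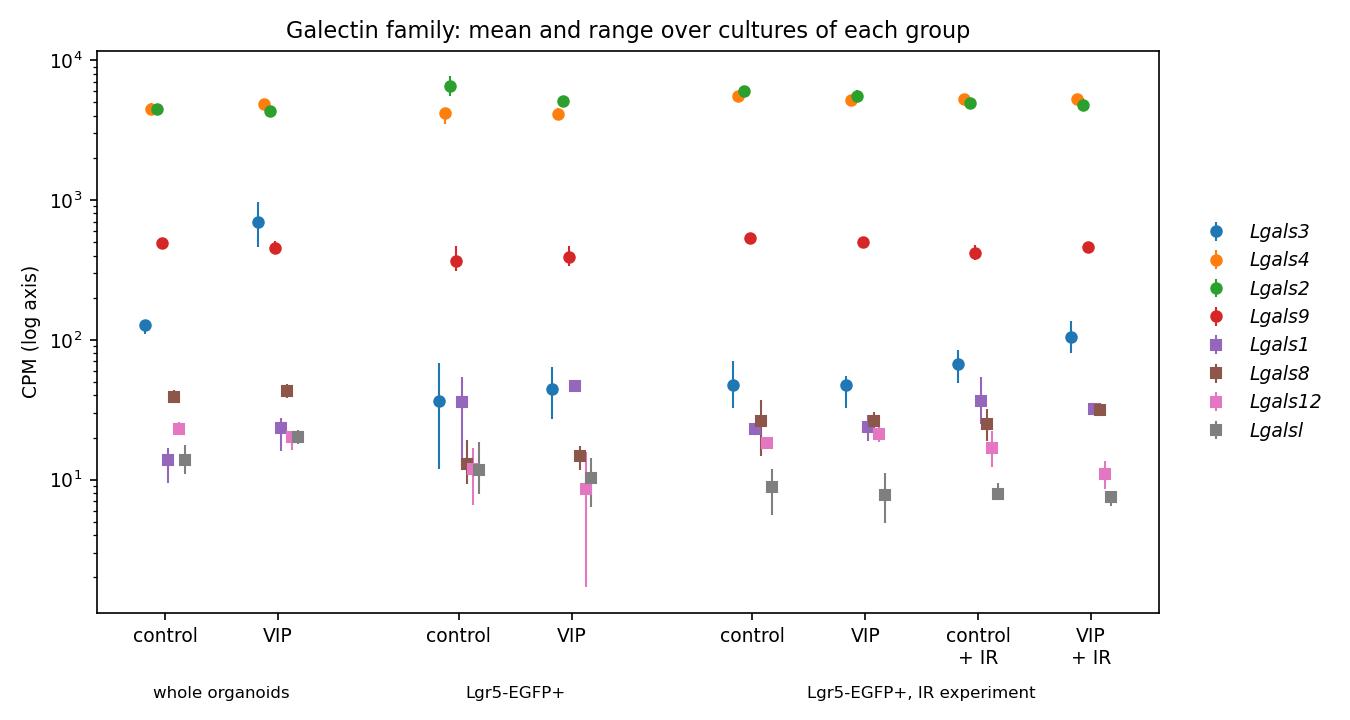
Mean CPM (points) and range over cultures (lines) of the 4 members (circles) and the 4 other galectins with enough counts (squares) in each group, on a logarithmic axis. Lgals2 and Lgals4 lie at 3478 CPM or above and the squares at 54.0 CPM or below in all groups, with Lgals9 between them and Lgals3 moving across that gap.

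Few of the listed genes that make or carry the sugars bound by galectins were called. Of 11 enzymes of N-glycan branching, poly-N-acetyllactosamine extension and sialic acid capping, 10 were tested in whole organoids. B3gnt3, which extends such chains, rose with VIP (0.46 ± 0.11, adjusted p = 0.0229, edgeR) and none fell, where 4.82% of all genes were called. Of the 9 tested in the irradiation experiment, St3gal4, a sialyltransferase, fell with VIP in non-irradiated cells (-1.27 ± 0.24, adjusted p = 0.00746), and Mgat4a, a branching enzyme, rose with irradiation in untreated cells (0.60 ± 0.14, adjusted p = 0.00946). Of all genes tested, 0.742% were called for VIP in non-irradiated cells and 4.46% for irradiation in untreated cells. Mgat5, whose branched glycans are preferred galectin-3 ligands, was not called in any comparison that tested it.

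Of 14 binding partners, 12 were tested in whole organoids and 1 was called: Pdcd6ip (ALIX), an endosomal sorting protein that binds galectin-3, rose with VIP by 0.39 ± 0.09 (adjusted p = 0.0271). None was called for VIP in any sorted comparison, where 9 were tested in the second experiment and 12 in the irradiation experiment. With irradiation 2 of 12 rose in untreated cells, Anpep (aminopeptidase N, 1.497 ± 0.30, adjusted p = 0.00302) and the lysosomal glycoprotein gene Lamp1 (0.26 ± 0.07, adjusted p = 0.0178), and 4 of 12 in VIP-treated cells. These 4 were Pdcd6ip (0.81 ± 0.18, adjusted p = 0.0039), the hyaluronan receptor gene Cd44 (0.71 ± 0.15, adjusted p = 0.00398), Trim16, a galectin-3 partner at damaged lysosomes (0.89 ± 0.25, adjusted p = 0.023), and Lamp1 (0.24 ± 0.07, adjusted p = 0.0235). Lgals3bp, encoding a secreted galectin-3 ligand, was not called (0.02 ± 0.09 for VIP in organoids and 0.13 ± 0.07 for irradiation with VIP). The medians of the partners were 0.19, 0.28 and 0.34 in the 3 comparisons with calls, where the medians over all genes were 0.00. Of all genes tested, 4.82%, 4.46% and 7.78% were called there in either direction.

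To see which genes the members resemble, log2 CPM was centred within each mouse and correlated over the 30 samples that have a partner of the same mouse, among 6730 genes that passed the filter in all 3 experiments. The genes most like Lgals3 were Krt7, a simple-epithelium keratin (Pearson r = 0.93), the annexin gene Anxa2 (0.93) and S100a11 (0.90). Whole organoids alone gave 0.99, 0.99 and 0.98, where the 2 cultures of a mouse mirror each other by construction, and the irradiation experiment alone gave 0.87, 0.79 and 0.82. Lgals4 was most like Sft2d1 (0.86), Dph3 (0.85) and Cib1 (0.84). Nearest to Lgals2 were mt-Nd1 (0.91), Etfb (0.89) and Acat1 (0.87), and among those nearest to Lgals9 were Rp9 (0.87) and Idh3g (0.87). All of these but Rp9 encode mitochondrial proteins. Among the members, Lgals3 had r of -0.45 with Lgals2 and -0.37 with Lgals9, and Lgals2 had 0.51 with Lgals4. All these points share libraries and treatment groups.

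**Figure D5:**
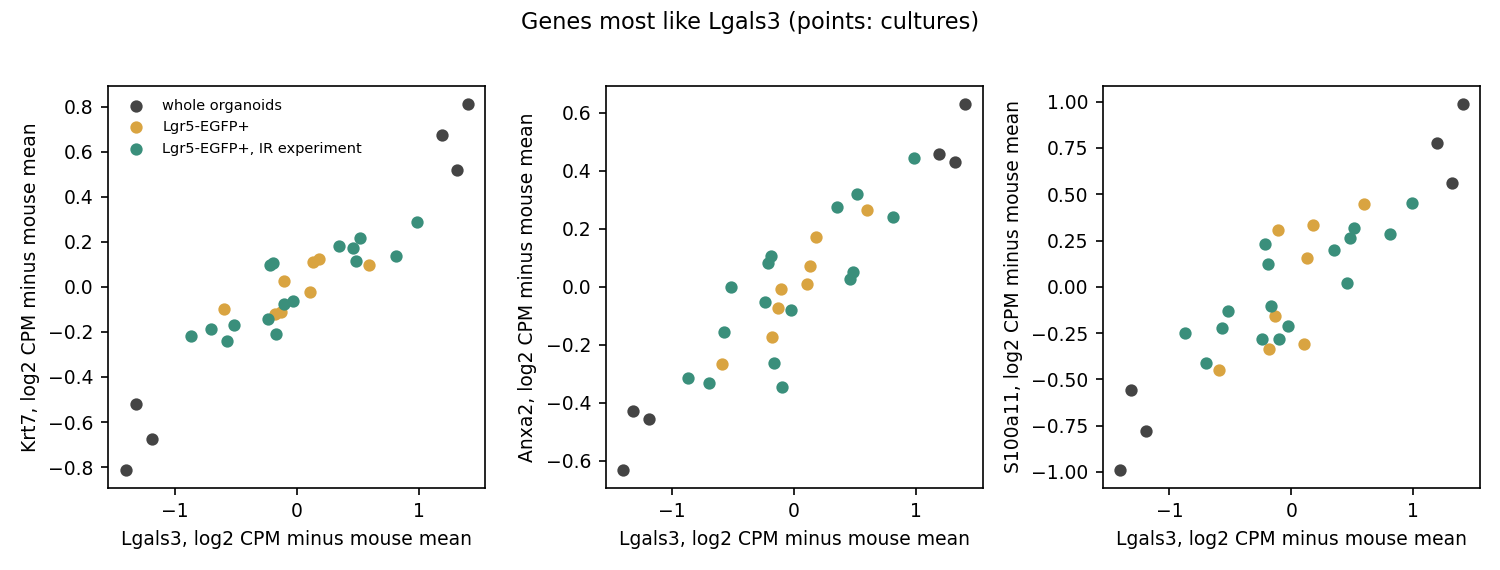
log2 CPM of Krt7, Anxa2 and S100a11 (vertical) against Lgals3 (horizontal), each minus the mean of its mouse; a point is a culture, coloured by experiment. The whole organoid points mirror each other because each mouse has 2 cultures, and they lie at the far ends of each cloud.

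The promoters of the 4 members were also looked at. The 250 bases before the start that RefSeq gives on GRCm38.p6 were searched on both strands. Neither the cAMP response element core TGACG nor the AP-1 motif TGANTCA matched in any of the 4 members. Of 32851 mouse promoters of that length, 17.8% and 6.75% held these motifs. For Lgals4 the RefSeq start did not match the beginning of a GENCODE M21 transcript. The Lgals3 window lies inside the gene span given above, so other starts of these genes were not searched. The GC box GGGCGG, found in 32.7% of promoters, matched in Lgals3, and the CDX motif TTTATNG, found in 9.81%, in Lgals2. The Lgals3 and Lgals2 windows are shown since each holds a match, given in capitals, on the strand of the gene. The Lgals3 match is the reverse complement of the motif and lies 7 to 2 bases before the start, and that of Lgals2 lies 68 to 62 bases before it.
Lgals3, chr14:47373610-47373859, plus strand: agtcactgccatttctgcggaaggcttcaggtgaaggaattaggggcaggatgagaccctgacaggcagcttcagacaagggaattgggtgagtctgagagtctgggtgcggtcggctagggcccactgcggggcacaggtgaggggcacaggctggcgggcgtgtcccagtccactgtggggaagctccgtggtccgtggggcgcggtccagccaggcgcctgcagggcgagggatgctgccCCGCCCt
Lgals2, chr15:78855530-78855779, minus strand: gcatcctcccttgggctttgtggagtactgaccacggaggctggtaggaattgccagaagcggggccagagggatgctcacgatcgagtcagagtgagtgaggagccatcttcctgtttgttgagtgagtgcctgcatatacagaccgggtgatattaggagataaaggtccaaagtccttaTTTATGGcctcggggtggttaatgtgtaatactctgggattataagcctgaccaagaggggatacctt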

How the data were processed

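Per the study's methods, poly(A) RNA was reverse transcribed with barcoded oligo-dT primers carrying UMIs, and the authors used the Drop-seq pipeline with GRCm38 and GENCODE genes to make the deposited tables, whose values are unnormalized counts of UMIs, 1 column for each library. Samples were grouped by treatment, cell type and irradiation labels, and 37 libraries were reduced to 31 cultures by summing technical replicates. In R 4.3.3, each comparison was tested with edgeR 4.0.16 (TMM scaling, filterByExpr by group, quasi-likelihood F test, mouse as a block, Benjamini-Hochberg over all genes tested, threshold 0.05); values after ± beside a log2 fold change are SEs derived from the F statistic. The irradiation experiment was 1 fit of 16 samples. Same-numbered cultures share the cell line label and so pair by mouse. Correlations of their deviations from group means were 0.27 to 0.63 in whole organoids and -0.03 to 0.21 in sorted cells. Between different mice they were -0.54 to 0.33 and -0.14 to 0.15, so the ranges overlapped and the pairing rests on the labels. A prior count of 2 was used for log2 CPM.

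Members, gene lists and tests were chosen with earlier results of these data known, and markers and partner lists are general knowledge of the cell types and of galectins. The members are named in every comparison. Genes of the galectin, sugar and partner lists are named where they passed, and markers are given mostly as counts. Cdc42ep1 as an overlap was named after the annotation was seen. Alternatives were RLE size factors, library size alone, DESeq2 1.42.0, no filter, no block, each mouse left out, other uses of the technical libraries and fits of 8 samples; leaving out the first library of VIP mouse 3 was added after seeing the data. The fits were tested on simulated data. The lines of a group came from separate mice, cultures within a mouse from 1 line. Coding sequences, coordinates and exons came from GENCODE M21 and promoters from RefSeq; protein sequences were not used here. Intervals of single values are exact Clopper-Pearson intervals and cover counting error only. A marker gene and a gene among those most like Lgals9 are not reported here.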

Additional observations from a re-analysis of the deposited data

Results flagged for a closer look

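The VIP effect on Lgals3 was listed for its difference between sorted Lgr5-EGFP+ cells and whole organoids, -2.285 on the log2 scale (SE 0.27) in sorted cells relative to whole organoids. The genes were chosen in part for this contrast, so the value is a description and supports nothing. Its call was lost without the mouse as a block (edgeR, adjusted p = 0.449) and with the library that stood apart as the only one of VIP mouse 3. Compartment, strain and experiment cannot be told apart. In 28 groups of 4 cultures, 1 per gene and group, no culture stood apart from the others by Dixon's criterion, which flags about 1 in 20 groups by chance; the library of VIP mouse 3 that stood apart does so within its culture, which this criterion does not see.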

How the results depend on the processing

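Of 324 recomputed log2 fold changes of the members, 298 kept their direction and side of the threshold, 12 lost and 4 gained a call, and 10 changed sign, all of the latter uncalled before and after. Lgals3 kept its direction for VIP in whole organoids, VIP in irradiated cells, both irradiation effects and both differences of effects under every alternative run. The replicate block mattered: without it genes called fell from 614 to 99 (VIP, whole organoids), 6 to 1 (VIP, sorted cells), 15 to 0 (difference of these), 74 to 34 (VIP, non-irradiated) and 22 to 12 (VIP, irradiated), and the calls of Lgals3 in the difference (-2.28) and Lgals2 for irradiation with VIP (-0.22) were lost; it changed no other call of the members. The cause was not tested. Keeping genes of low count, in the same order of comparisons, gave 979, 17, 57, 182 and 110 called genes and 34 for the interaction, against 0, and passed Lgals3 for VIP in irradiated cells (0.65) and for irradiation in untreated cells (0.46); more genes were tested then. DESeq2 called 300.0 genes for VIP in whole organoids, 2 in sorted cells, 12 in irradiated cells, and 281 and 489 for irradiation without and with VIP, where edgeR called 445 and 776. Library size alone gave 14 genes for VIP in sorted cells and 9 for the difference, of which 0% were higher in sorted cells against 13.3% with TMM. Fits of 8 samples gave 184 genes for VIP in non-irradiated and 52 in irradiated cells, with Lgals3 at 0.64 and called. Without the second library of VIP mouse 3, 1261 genes were called in whole organoids and 27 in the difference (28 with first libraries only); without its first library, 0 and 1 were, and Lgals3 was at 1.88 and -1.56, neither called. Lgals3 for VIP in non-irradiated cells changed sign without the filter (-0.0040), without the block (-0.015) and in 8 samples (-0.00042), and Lgals4 for VIP in irradiated cells with library size alone (0.010).

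Leaving out each mouse gave 363 to 1668 called genes for VIP in whole organoids (most without mouse 3, which holds the library that stood apart), 3 to 17 in sorted cells, 4 to 41 for the difference, 32 to 42 and 5 to 35 for VIP without and with irradiation, 176 to 643 and 426 to 691 for irradiation without and with VIP, and 0 to 1 for the interaction. Lgals3 ranged from -0.15 to 0.18 for VIP in non-irradiated and from 0.30 to 0.75 for irradiation in untreated cells. Lgals2 ranged from -0.33 to -0.22 and from -0.23 to -0.21 for irradiation without and with VIP and from -0.010 to 0.11 for the interaction. Lgals9 ranged from -0.40 to -0.26 for irradiation in untreated cells and from -0.044 to 0.19 for VIP in sorted cells. Lgals4 ranged from -0.12 to 0.047 for VIP in sorted and from -0.029 to 0.020 in irradiated cells. In the second experiment Lgals3 rested on 7 to 43 UMIs per sample, which limits its precision.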
